A study of Mus musculus with 4 samples.

Results

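Neutrophils were described in 4 single-cell RNA libraries of mouse digits after amputation of the digit tip. A barcode was kept as a cell when it held 200 to 5500 genes, at most 30000 unique molecular identifiers (UMIs, each marking 1 captured transcript) and at most 10% of UMIs from mitochondrial genes. A kept cell was taken as a neutrophil when it held at least 1 UMI of at least 3 of the 5 genes Csf3r, Cxcr2, Retnlg, Mmp9 and Il1r2, and at most 1 UMI of C1qa, C1qb and C1qc together. Of 93602 kept cells, 561 met this rule, with 218 of 19827 in the LNR library, 136 of 20669 in the sham library, 128 of 29076 in the SAR131675 library and 79 of 24030 in the control diet library. The cells were thus chosen by their measured UMIs of these 8 genes, whose values are given only as a description.

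All mice were female C57BL/6 per the labels (C57BL/6J in the methods), aged 6–8 weeks, and the tip of the third phalanx (P3) of hindlimb digits 2 and 4 had been amputated. In 1 experiment, inguinal and popliteal lymph nodes of a limb were taken out (LNR), and the sham library, which the study places in the contralateral limb, carries the label No treatment. In the other experiment, chow held SAR131675, an inhibitor of the lymphatic growth factor receptor VEGFR3, at 30 mg/kg over a labelled 8 days, and its comparison was a control diet that is also labelled No treatment. Per the methods, feeding began 5 days ahead of amputation and the study's text places the libraries at 8 days post amputation (DPA), while a legend gives 5 DPA for the diet experiment. For each library, hindlimb digits 2–4 of 10 mice, cut at the proximal level of the second phalanx (P2) per the methods, were pooled. Whether the LNR and sham pools came from the same mice is not stated. Each condition therefore had 1 library with a batch label of its own, so treatment, batch and mouse pool cannot be told apart, no difference has a replicate check, and no p-value is given. All intervals are 95% intervals that cover counting error only.

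Neutrophils are short-lived granulocytes that are made in bone marrow under granulocyte colony-stimulating factor, and they are among the first leukocytes to enter a wound. Their granule proteins are made in sequence during maturation in the marrow, primary granules first and secondary and tertiary granules later, so mature blood neutrophils carry the proteins while most of the transcripts have faded. In tissue they sense chemoattractants and microbial products, release interleukin 1 and chemokines, and produce reactive oxygen through the NADPH oxidase.

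The 4 libraries held 21669 to 38464 barcodes and 168507188 to 585284877 UMIs. Kept cells had a median of 5725 UMIs in LNR and 5851 in sham, against 11316 in SAR131675 and 10712 in control diet, and the file headers name a later Cell Ranger version for the diet pair. Comparisons were therefore made within each experiment. The LNR and sham libraries shared 101 kept barcodes, the diet libraries shared 210, other pairs shared 0 to 2, and no neutrophil barcode was shared. Among barcodes above the limits of 5500 genes or 30000 UMIs, 3 of 523 in LNR, 1 of 513 in sham, 12 of 6221 in SAR131675 and 8 of 4400 in control diet met the gene rule and were left out. Neutrophils were shallow cells, with median UMI counts of 2138.5 in LNR, 1528.5 in sham, 2667.5 in SAR131675 and 2816 in control diet, against 5762, 5881, 11339 and 10729 in the other kept cells of the same libraries.

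The label was checked on genes that the rule did not use. Their levels are given as counts per 1000000 UMIs (CPM) summed over the neutrophils of a library. S100a9, a subunit of the calcium-binding alarmin calprotectin, stood at 35740.1 CPM in LNR, 50779.9 in sham, 10768 in SAR131675 and 15136 in control diet. Its level in macrophages (cells with 5 or more C1q UMIs) of the same libraries was 59.6, 409.9, 9.86 and 4.70 CPM. Trem1, an amplifying receptor of myeloid inflammation, stood at 311, 355, 681 and 625 CPM in neutrophils and at 2.85, 2.96, 0.422 and 0.542 CPM in macrophages. Acod1, which makes itaconate, reached 784, 708, 2434 and 2225 CPM in neutrophils and no more than 11.7 CPM in macrophages. Among genes with at least 50 UMIs in the neutrophils of each library, those furthest above all other kept cells beyond the rule genes were Stfa2l1, a stefin-like protease inhibitor, at 373-fold to 4346-fold, and Fpr1, the formyl peptide receptor, at 364-fold to 3016-fold over the 4 libraries. S100a8, the partner of S100a9, was 196-fold to 1181-fold higher, and G0s2, a lipase inhibitor abundant in neutrophils, was 124-fold to 483-fold higher. Of the 20 genes of the neutrophil check list, 20 in LNR, 20 in sham, 18 in SAR131675 and 19 in control diet were above the other kept cells. In each library the neutrophils thus carried most of that list above other cells of the same droplet run, and the genes named here far above.

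The rule markers themselves were each seen in most of the cells. Csf3r, the receptor for granulocyte colony-stimulating factor, had a UMI in 72.9% of neutrophils in LNR, 73.5% in sham, 89.8% in SAR131675 and 93.7% in control diet. Il1r2, the decoy receptor for interleukin 1, had a UMI in 86.2%, 84.6%, 93.8% and 97.5%. Il1r2 was no granulocyte gene alone here, since 16.6% to 26.0% of keratinocytes and 19.0% to 29.4% of fibroblasts also held a UMI of it. Csf3r, in contrast, had a UMI in 0.0199% to 0.0872% of keratinocytes, which were deeper cells with medians of 8882 to 13127 UMIs. For S100a9, which free RNA can carry into any droplet, 0.437% to 4.98% of keratinocytes and 0.268% to 2.40% of fibroblasts held a UMI, against 93.3% to 98.3% of neutrophils with exactly 3 markers.

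Just inside the limit, 97, 60, 50 and 30 cells of LNR, sham, SAR131675 and control diet held 3 of the 5 markers. Just outside it, 148, 168, 123 and 70 cells held 2 markers. S100a9 was at 31606, 47832, 13153 and 6302 CPM in the cells with 3 markers and at 7819, 5755, 2121 and 2545 CPM in those with 2. The cells with 2 markers were much deeper, with median UMI counts of 6265, 6460.5, 11592 and 10829 against 1417, 1335.5, 2446 and 2788.5. Of cells with 3 or more markers, those left out for more than 1 C1q UMI numbered 3 in LNR, 6 in sham, 2 in SAR131675 and 2 in control diet.

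Markers of other leukocytes were low in the neutrophils. Over the 14 eosinophil and basophil markers, the summed level was 21.9 CPM in LNR, 17.6 in sham, 9.90 in SAR131675 and 18.7 in control diet, and 9, 11, 11 and 11 of the 14 genes were at 0. The 10 T and B cell markers summed to 16.6, 15.6, 6.60 and 18.7 CPM. The 13 macrophage markers summed to 1174, 1196, 567 and 529 CPM, against 21399, 19872, 23671 and 25572 CPM in macrophages. These lists were thus near 0 or far below the level in the cells they mark. The 8 monocyte markers summed to 1739, 1883, 529 and 700 CPM, against 5186, 4466, 5307 and 4703 CPM in monocytes, so that this gap was smaller, above all in LNR and sham, and the 8 osteoclast markers to 131, 123, 89.1 and 93.6 CPM with 4 of 8 genes at 0 in each library. Some sums were set by single barcodes. The 13 dendritic cell markers summed to 1067, 277, 51.1 and 2162 CPM, and 501 of 507 control diet UMIs of Cd74 came from 1 cell. That barcode was among those called unmixed below, where the control diet sum was 5143 CPM, and all 3 dendritic genes compared in the diet pair were at least 2-fold lower with SAR131675, where 5% of all genes were. In LNR 4 of the 4 compared were at least 2-fold higher, where 2.53% of all genes were. Of the 562 LNR UMIs of Cd74, 547 came from 5 cells, and the LNR sum was 1326.5 CPM in mixed and 271 in unmixed barcodes. The 5 erythroid markers summed to 97.8, 2229, 1220.5 and 115 CPM, and 571 of 655 sham UMIs of Hbb-bs came from 1 cell. The 7 endothelial markers summed to 38.5, 139, 26.4 and 72.5 CPM. RNA of structural cells was higher than any of these. Keratinocyte markers summed to 9358, 7373, 12643 and 14958 CPM in all neutrophils, and fibroblast markers to 7751, 7215, 3605 and 2948 CPM.

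This RNA sat in a subset of barcodes. Structural cells were the other kept cells with no UMI of Ptprc or C1q, and their genes were those at 20 CPM or more in them and at least 3-fold above macrophages of the same library. A neutrophil was called mixed when such genes made up more of its UMIs than the median of structural cells divided by 4, a limit that was set after the data had been seen. Mixed barcodes numbered 87 of 218 in LNR (39.9%), 42 of 136 in sham (30.9%), 27 of 128 in SAR131675 (21.1%) and 24 of 79 in control diet (30.4%). They were far deeper than the unmixed neutrophils, with median UMI counts of 7385, 7241.5, 14275 and 9855.5 against 1224, 1147, 2539 and 2507. Together they held 75.4%, 68.6%, 56.9% and 58.1% of all neutrophil UMIs. The doublet caller Scrublet marked 40, 20, 20 and 1 of the mixed barcodes and 0, 1, 1 and 0 of the unmixed ones. Over all kept cells it called 6.8%, 7.2%, 4.6% and 1.1%, so its calls in control diet say little about those barcodes. Within 20% of the limit lay 7, 3, 9 and 4 barcodes. In the 131, 94, 101 and 55 unmixed neutrophils, keratinocyte markers stood at 1036, 1026, 1817 and 900.1 CPM and fibroblast markers at 148, 174, 76.5 and 22.4 CPM, while the 20 genes of the neutrophil check reached 235502, 265536, 87488 and 98846 CPM. Since the mixed share differed between libraries, ratios below are given for all neutrophils and, where the value shifts, for the unmixed ones.

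**Figure D1:**
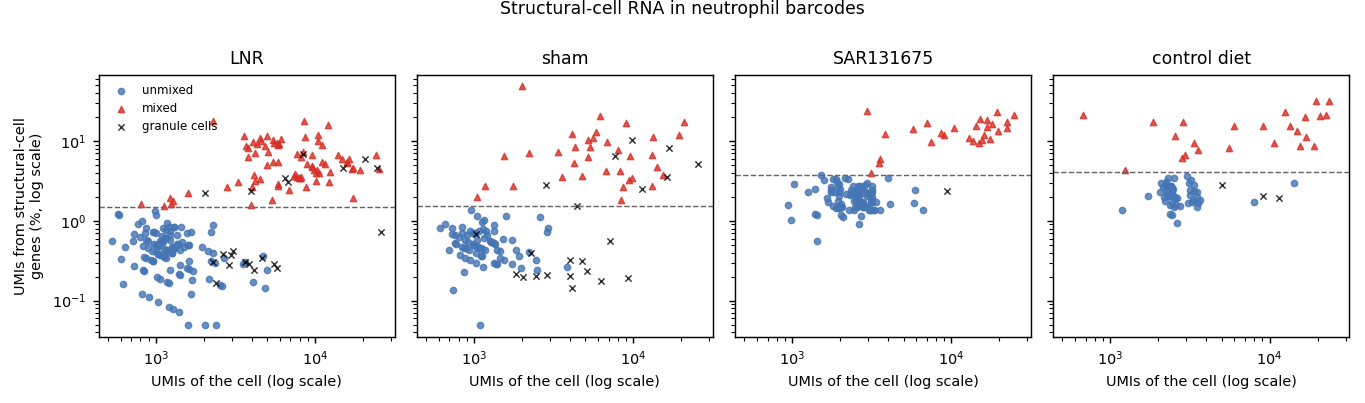
Each point is 1 neutrophil of the library named above the panel, with its UMI count (log axis) against the percent of its UMIs that came from structural-cell genes (log axis, lowest values drawn at the axis floor). Points above the dashed limit, 87, 42, 27 and 24 in LNR, sham, SAR131675 and control diet, are the mixed barcodes. Most of them lie to the right, at high UMI counts, and they are triangles unless they are also granule cells. Crosses are granule cells, mixed or unmixed, defined in the text on Camp, Ltf and Ngp.

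**Figure D2:**
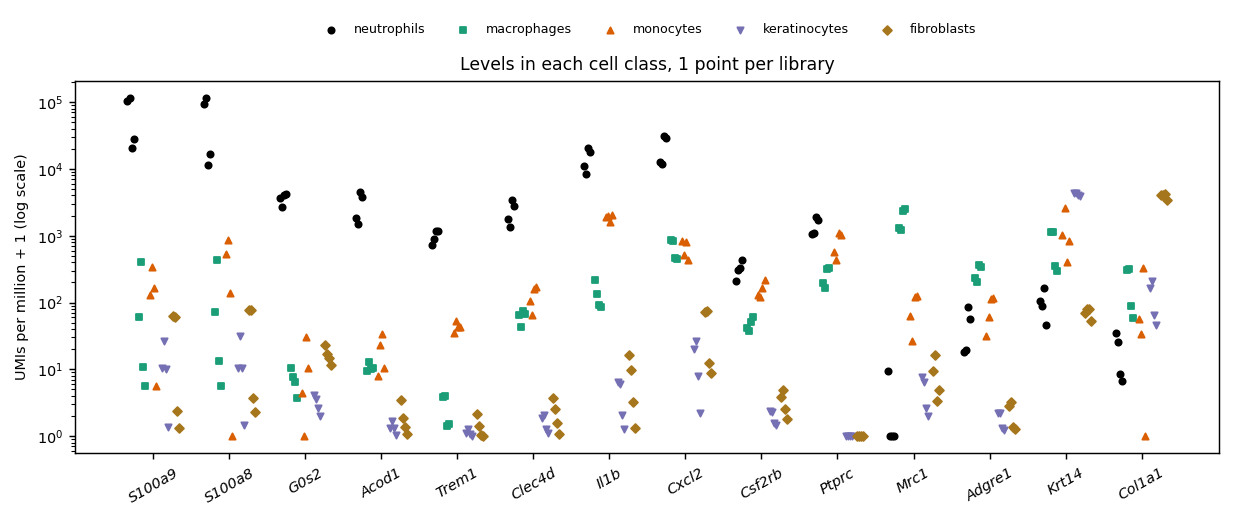
Levels of 14 genes in CPM plus 1 (log axis) in unmixed neutrophils, macrophages, monocytes, keratinocytes and fibroblasts, with 1 point per library. S100a9, S100a8, G0s2, Acod1 and Trem1 were highest in the neutrophils of every library, while Mrc1 and Adgre1 marked macrophages, Krt14 keratinocytes and Col1a1 fibroblasts.

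The share of neutrophils among kept cells was higher in LNR than in sham. Neutrophils made up 1.10% of kept cells in LNR (interval 0.959% to 1.25%), 0.658% in sham (0.552% to 0.778%), 0.440% in SAR131675 (0.367% to 0.523%) and 0.329% in control diet (0.260% to 0.410%). The log2 ratio of shares was 0.74 for LNR over sham (0.43 to 1.06), a 1.67-fold difference, and 0.42 for SAR131675 over control diet (0.0055 to 0.84), a 1.34-fold difference. Among unmixed neutrophils the shares were 0.661%, 0.455%, 0.347% and 0.229%, with log2 ratios of 0.54 (0.15 to 0.94) and 0.60 (0.11 to 1.10). Mixed barcodes alone differed by 1.11 (0.56 to 1.68) and by −0.11 (−0.95 to 0.75). Among cells with a UMI of the leukocyte antigen Ptprc, neutrophils were 9.56%, 7.42%, 6.74% and 5.90%, and the log2 ratios were 0.37 (−0.0023 to 0.74) and 0.19 (−0.25 to 0.64). This count also leaves out neutrophils without a Ptprc UMI. Of neutrophils with exactly 3 markers, 54.6% in LNR, 71.7% in sham, 90% in SAR131675 and 76.7% in control diet held one. Both treated libraries thus held the larger share under each of these counts except the mixed barcodes of the diet pair, but among cells with a Ptprc UMI both intervals included 0.

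**Figure D3:**
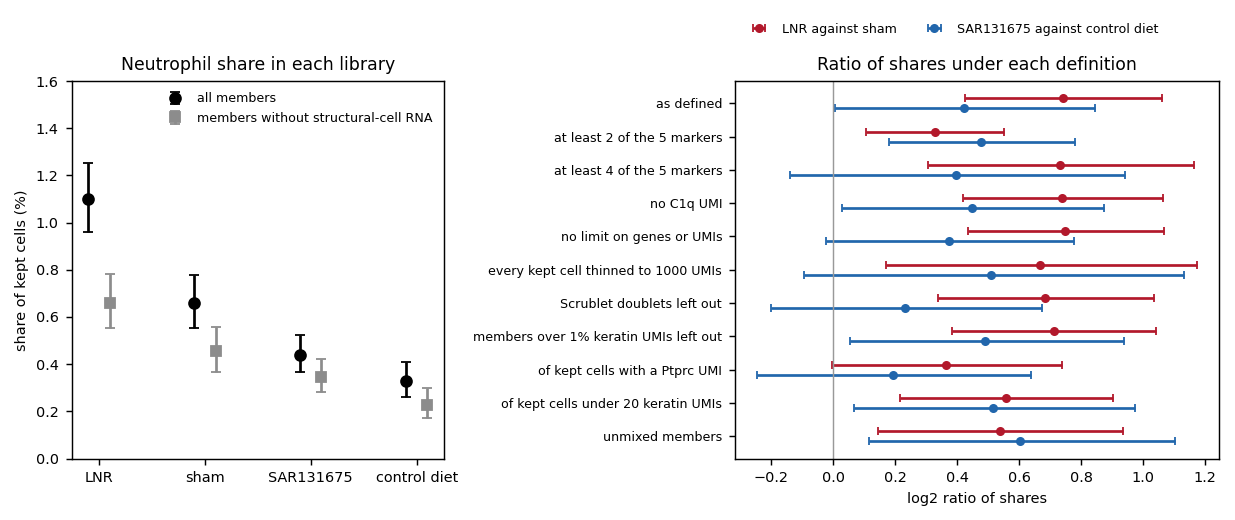
Left, neutrophils as a percent of kept cells in each library with 95% intervals, for all neutrophils and for those without structural-cell RNA. Right, the log2 ratio of shares in both experiments under each definition of a neutrophil or of the denominator. The ratios for all neutrophils were 0.74 for LNR over sham and 0.42 for SAR131675 over control diet.

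A gene was compared within an experiment when its neutrophils held at least 50 UMIs of it over both libraries, and a gene was counted as different when its CPM differed at least 2-fold, that is by 1 or more on the log2 scale. All ratios below are log2 ratios of CPM, LNR over sham or SAR131675 over control diet (the diet ratio), and runs of 4 values follow the order LNR, sham, SAR131675 and control diet. Of 3710 genes compared between LNR and sham, 94 were higher in LNR (2.53%) and 42 were lower (1.13%). Of 3597 genes compared between SAR131675 and control diet, 130 were higher with SAR131675 (3.61%) and 180 were lower (5%). In unmixed neutrophils the counts were 14 higher (1.52%) and 4 lower (0.434%) of 922 genes in LNR, and 49 higher (3.45%) and 42 lower (2.96%) of 1419 genes with SAR131675. The log2 ratio was positive for 2051 genes in LNR and 1770 with SAR131675, and over all genes compared the interval excluded 0, on either side, for 643 and 1032. In unmixed neutrophils 541 and 756 genes were positive and 162 and 401 intervals excluded 0. Among genes whose level in neutrophils was at least that of the other kept cells, 0.65% were higher and 1.16% lower in LNR, and 1.97% were higher and 1.59% lower with SAR131675, and in unmixed neutrophils these shares were 1.26%, 0.315%, 3.36% and 2.88%. The median log2 ratio of all genes compared was 0.04 and −0.01 over all neutrophils, and 0.07 and 0.05 over the unmixed ones.

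Secondary and tertiary granule genes were lower in both treated libraries when summed over all neutrophils. The list of 15 genes holds 1 rule gene, which was among those compared and whose ratio is only a description. Of the 14 genes of this list that could be compared, 13 had a negative log2 ratio in LNR against sham and 4 were at least 2-fold lower, where 1.13% of all genes were. With SAR131675, 12 of 14 were negative and 5 were at least 2-fold lower, where 5% of all genes were. The list medians were −0.87 and −0.57. In unmixed neutrophils they were −0.39, with 1 of 13 genes at least 2-fold lower where 0.434% of all genes were, and −0.41, with 5 of 13 where 2.96% were.

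The genes used below to define granule cells were Camp, the precursor of the antimicrobial peptide cathelicidin, Ltf, the iron-binding lactotransferrin, and Ngp, neutrophilic granule protein. Camp was at 2512 CPM in LNR, 7129 in sham, 1242 in SAR131675 and 2869 in control diet, with log2 ratios of −1.50 (−1.58 to −1.43) and −1.21 (−1.34 to −1.08). Ltf was at 513, 1288, 186 and 707 CPM, with log2 ratios of −1.33 (−1.50 to −1.16) and −1.92 (−2.25 to −1.61). Camp and Ltf were the only genes at least 2-fold lower in both experiments among genes at or above the level of the other kept cells. Ngp was at 2663, 5070.38, 983 and 2485 CPM, with log2 ratios of −0.93 (−1.01 to −0.85) and −1.34. For all 3 genes the treated library was below its comparison. Without mixed barcodes the LNR ratios of Camp, Ltf and Ngp were −0.57, −1.0 and −0.29, and the SAR131675 ratios were −1.25, −1.96 and −1.42.

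Promoter sequence is shown for these 3 genes because they differed together. The 250 bases upstream of each start site are from RefSeq on GRCm38.p6, Camp at chr9:109849457-109849706, minus strand, Ngp at chr9:110419558-110419807, plus strand and Ltf at chr9:111019042-111019291, plus strand, each printed 5′ to 3′ on the strand of its gene. Capitals mark TTGCNNAA on either strand, a form of the binding motif of C/EBP factors, which drive granule genes during maturation. The motif occurs in 9.56% of 32851 promoters of this length, and it was found 0 times for Camp, 2 times for Ngp and 1 time for Ltf.
Camp: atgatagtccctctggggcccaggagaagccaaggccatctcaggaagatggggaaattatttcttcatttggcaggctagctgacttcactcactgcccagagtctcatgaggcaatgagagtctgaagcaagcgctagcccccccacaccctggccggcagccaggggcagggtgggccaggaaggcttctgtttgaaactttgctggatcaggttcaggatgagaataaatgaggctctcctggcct
Ngp: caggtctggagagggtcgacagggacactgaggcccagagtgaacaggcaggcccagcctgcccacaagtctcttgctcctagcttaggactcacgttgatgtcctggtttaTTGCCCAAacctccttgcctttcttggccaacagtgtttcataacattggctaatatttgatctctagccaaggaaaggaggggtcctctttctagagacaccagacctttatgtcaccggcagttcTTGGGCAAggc
Ltf: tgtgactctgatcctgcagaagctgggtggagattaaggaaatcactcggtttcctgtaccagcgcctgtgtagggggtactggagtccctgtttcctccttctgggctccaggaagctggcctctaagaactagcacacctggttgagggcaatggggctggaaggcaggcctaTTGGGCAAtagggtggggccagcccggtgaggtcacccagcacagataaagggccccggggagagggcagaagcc

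Few cells carried these transcripts. A granule cell was defined, after the data had been seen, as a neutrophil with at least 2 UMIs of at least 2 of Ltf, Camp and Ngp. There were 21 granule cells among 218 neutrophils in LNR (9.63%, 6.06% to 14.3%), 22 of 136 in sham (16.2%, 10.4% to 23.5%), 1 of 128 in SAR131675 (0.781%, 0.0198% to 4.28%) and 3 of 79 in control diet (3.80%, 0.790% to 10.7%). They held 96.9%, 99.1%, 97.2% and 99.9% of the UMIs of the 3 genes. Macrophages, which the C1q limit keeps out of the neutrophils, held 22 UMIs of the 3 genes in LNR and 1314 in sham. The level of Camp, Ltf and Ngp in a library was thus set by at most 22 cells, and in the diet pair by 1 and 3 cells. In unmixed neutrophils outside the granule cells 149, 31, 26 and 2 UMIs of the 3 genes remained, and since the definition removes cells by these same genes no ratio is read there. With every neutrophil thinned to 1000 UMIs, and shallower ones left out, granule cells made up 9.84%, 17.4%, 0.794% and 3.85% of neutrophils. The log2 ratio of the unthinned share was −0.75 (−1.68 to 0.18) for LNR over sham and −2.28 (−8.00 to 1.36) for SAR131675 over control diet, so that neither could be separated from 0 at this number of cells. As a share of all kept cells, granule cells were 0.106% in LNR and 0.106% in sham, with a log2 ratio of −0.01 (−0.94 to 0.92). The lower share of granule cells among LNR neutrophils thus stood beside a larger number of other neutrophils.

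Granule cells differed from the remaining unmixed neutrophils in many other genes. Unmixed granule cells numbered 13, 15, 1 and 3 in LNR, sham, SAR131675 and control diet. Il1b, which encodes interleukin 1 beta, had a UMI in 8 of 13, 6 of 15, 1 of 1 and 1 of 3 granule cells, against 116 of 118, 77 of 79, 100 of 100 and 51 of 52 of the others. Its level was 358, 895, 106 and 1092 CPM in granule cells and 15765, 13175, 21208 and 20362 CPM in the others. Cxcl2, a neutrophil-attracting chemokine, was at 487, 163, 0 and 390 CPM against 17660.3, 19158, 32047 and 34165 CPM. Both transcripts were thus lower in granule cells in all 4 libraries. S100a8 went the other way, at 172190 CPM in LNR granule cells and 198689 in sham against 61712 and 63640.2 CPM in the others. Cd177, a surface glycoprotein of maturing neutrophils, was at 989, 1139, 849 and 1404 CPM in granule cells and at 84.0, 40.2, 11.9 and 6.53 CPM in the others. Cybb, the catalytic subunit of the NADPH oxidase, was at 1375, 1725, 3397 and 2534 CPM against 204, 121, 103 and 118. Fth1, the ferritin heavy chain, was lower in granule cells, at 4728, 6231, 531 and 2807 CPM against 38517, 40630.0, 23560.3 and 20929.7 CPM. A few granule-rich cells with little Il1b or Cxcl2 thus stood beside a majority with the reverse pattern, although the 1 and 3 such cells of the diet pair are too few for a level of their own.

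**Figure D4:**
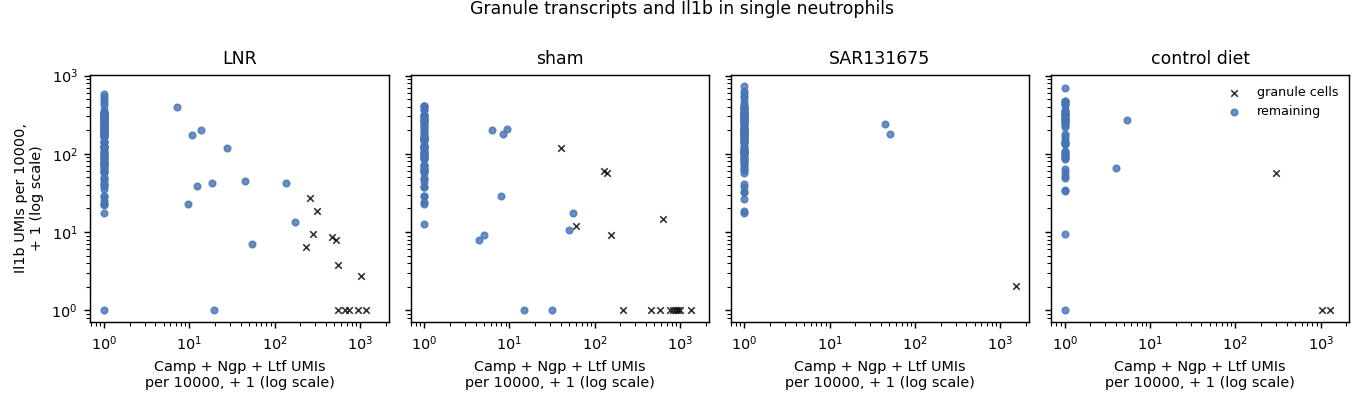
Each point is 1 unmixed neutrophil, with the UMIs of Camp, Ngp and Ltf together against those of Il1b, both per 10000 UMIs plus 1 on log axes, in 1 panel per library. Granule cells (13, 15, 1 and 3 in LNR, sham, SAR131675 and control diet) lie apart from the remaining neutrophils, most of which held Il1b.

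Primary granule genes had few UMIs, most of them in 1 cell of a library. The 6 genes summed to 112 CPM in LNR, 308 in sham, 6.60 in SAR131675 and 11.7 in control diet. Prtn3, proteinase 3, had 69 UMIs in 2 LNR cells and 49 in 1 sham cell. Elane, neutrophil elastase, had 16 and 85 UMIs in LNR and sham, Mpo, myeloperoxidase, 4 and 10, and Ms4a3 15 and 10, all from 1 cell in each library, while Prss57 had 2 to 4 UMIs per library. Of the 2 genes compared in LNR, 1 was at least 2-fold lower, where 1.13% of all genes were, and in unmixed neutrophils the sum was 448 CPM in LNR and 12.4 in sham. With so few cells no direction was read for these genes. Other members of the secondary list were less uniform. Lcn2, a siderophore-binding lipocalin, was at 1311, 2297, 487 and 1364 CPM, with log2 ratios of −0.81 and −1.49. Chil3, a chitinase-like protein that monocytes also make, was at 70.8 CPM in LNR, 377 in sham, 79.2 in SAR131675 and 143 in control diet, with log2 ratios of −2.41 and −0.85, so that its LNR ratio was further below 0 than those of Camp, Ltf and Ngp. Mmp8, neutrophil collagenase, was close within both pairs over all neutrophils, at 250 and 246 CPM in LNR and sham and at 94.0 and 110 CPM in the diet libraries. When granule cells were left out of the unmixed neutrophils, the log2 ratios of Lcn2 became 0.02 for LNR and −0.76 for SAR131675. Those of Mmp8 became 0.51 for LNR and 0.93 (0.04 to 1.92) for SAR131675.

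Ly6g, the antigen by which mouse neutrophils are usually sorted, was sparse, with 4 UMIs in SAR131675 and 20 in control diet, under the minimum of 50 for a comparison. It was at 49.9 CPM in LNR, 76.1 in sham, 6.60 in SAR131675 and 46.8 in control diet, and 12.8%, 16.2%, 3.12% and 11.4% of neutrophils held a UMI. After thinning to 1000 UMIs these shares were 8.74%, 7.34%, 0% and 1.28%. In control diet 13 of the UMIs lay in the 3 granule cells, and in unmixed neutrophils without them 1 UMI remained in SAR131675 and 5 in control diet. S100a8 was at 33042, 52329.5, 6259 and 8889 CPM, and S100a8 and S100a9 together had log2 ratios of −0.58 and −0.50. In unmixed neutrophils these were −0.21 and −0.51, and with granule cells also left out they were 0.01 (−0.02 to 0.04) and −0.07 (−0.13 to −0.02). The calprotectin ratio was thus close to 0 in both pairs among unmixed neutrophils outside the granule cells.

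The NADPH oxidase makes the oxidative burst. All 6 of its subunit genes were lower in LNR than in sham (median log2 ratio −0.57), although 0 of 6 were at least 2-fold lower, where 1.13% of all genes were and 1658 of 3710 were negative. Ncf4, a cytosolic subunit, was at 81.2 CPM in LNR, 162 in sham, 92.4 in SAR131675 and 154 in control diet, with log2 ratios of −1.0, just short of 2-fold (−1.46 to −0.53), and −0.74 (−1.28 to −0.21). Ncf1, the organizing subunit, was at 173, 271, 234 and 199 CPM, with log2 ratios of −0.65 (−0.99 to −0.32) and 0.24 (−0.16 to 0.64). Cybb was at 184, 363, 111 and 194 CPM, with log2 ratios of −0.98 (−1.28 to −0.67) and −0.81 (−1.30 to −0.33). In unmixed neutrophils all 6 genes stayed negative in LNR, with a median of −0.33 and intervals below 0 for 3 of them, where 380 of 922 genes were negative and 162 intervals excluded 0. With granule cells also left out, the LNR ratio of Cybb was 0.76 (−0.23 to 1.84), from 34 and 12 UMIs, under the minimum of 50 for a comparison. With SAR131675, 4 of 6 were negative and the median was −0.18, and in unmixed neutrophils 5 of 6 were negative and 1, Cybb, was at least 2-fold lower, where 2.96% of all genes were. With granule cells also left out, the diet ratio of Cybb was −0.19 (−1.11 to 0.77) from 26 and 18 UMIs. Its 2-fold difference was thus not seen outside the granule cells.

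Secreted cytokines and chemokines were abundant, and most differed less than 2-fold within pairs. Of 14 list genes compared in LNR and 13 with SAR131675, 7 and 9 were positive, where 2051 of 3710 and 1770 of 3597 genes were. Intervals lay above 0 for 3 and 6 and below for 1 and 2. In unmixed neutrophils 10 of 11 and 9 of 12 were positive, with medians of 0.27 and 0.34. There 5 and 8 intervals lay above 0 and 0 and 1 below, where 162 of 922 and 401 of 1419 excluded 0. Il1b was at 4653 CPM in LNR, 4079 in sham, 10781 in SAR131675 and 9371 in control diet, with a UMI in 94.5%, 88.2%, 100% and 96.2% of neutrophils. Macrophages of the same libraries held 217, 131, 91.0 and 83.7 CPM of Il1b, and monocytes (cells with a UMI of Ccr2, Plac8 and Lyz2 and at most 1 of C1q) 1921, 1961, 1598 and 2058 CPM. The log2 ratio of Il1b was 0.19 (0.11 to 0.27) for LNR over sham and 0.20 for SAR131675 over control diet, and in unmixed neutrophils it was 0.40 and 0.22. Cxcl2 was at 6026, 5979.84, 15243 and 14385 CPM, with log2 ratios of 0.01 and 0.08. In unmixed neutrophils without granule cells, Il1b was at 15765 CPM in LNR and 13175 in sham, and its diet ratio was 0.06. Cxcl2 was there lower in both treated libraries, at 17660 CPM in LNR and 19158 in sham, with a diet ratio of −0.09. The list as a whole was not compared without granule cells. In every library Il1b was far higher in neutrophils than in macrophages, and differences inside each pair were small beside that gap. After thinning to 1000 UMIs, 82.5%, 75.2%, 94.4% and 93.6% of neutrophils held Il1b, against 0.325% to 1.72% of the unthinned keratinocytes.

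Ccl3 and Ccl4, chemokines that attract monocytes and lymphocytes, were higher with SAR131675, and Ccl3 was also higher in LNR among unmixed neutrophils. Ccl4 was at 1025 CPM in LNR, 982 in sham, 3305 in SAR131675 and 1839 in control diet, with a log2 ratio of 0.85 (0.73 to 0.97) in the diet pair and 0.06 in the other. Ccl3 was at 499, 422, 1456 and 866 CPM, with log2 ratios of 0.24 for LNR and 0.75 for SAR131675. In unmixed neutrophils the diet ratios became 1.39 for Ccl4 and 1.07 for Ccl3, and these were the 2 of 12 list genes at least 2-fold higher, where 3.45% of all genes were. With granule cells also left out Ccl3 fell short of 2-fold, at 0.90 (0.70 to 1.11), and Ccl4 was at 1.22. For LNR the unmixed ratio of Ccl3 was 1.23 (0.89 to 1.58) and that of Ccl4 was 0.54. Ccl3 was the 1 of 11 list genes at least 2-fold higher there, where 1.52% of all genes were. With granule cells also left out, Ccl3 was at 1883 CPM in LNR against 915 in sham. Osm, oncostatin M, an interleukin 6 family cytokine with receptors on bone-forming cells, was lower with SAR131675, at 259 against 419 CPM (log2 ratio −0.69, −1.01 to −0.38), and was 136 and 131 CPM in LNR and sham. Il1rn, the interleukin 1 receptor antagonist, was close within pairs at 399, 414, 666 and 676 CPM. Il10 had 0, 0, 5 and 3 UMIs and could not be compared.

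Among chemoattractant receptors, no gene of the 9 compared in LNR or the 7 compared with SAR131675 reached 2-fold, which with so few genes is near the shares over all genes (2.53% higher and 1.13% lower in LNR, 3.61% and 5% with SAR131675). Cxcr4, the receptor that holds neutrophils in marrow and marks aged ones, was at 133 CPM in LNR, 131 in sham, 310 in SAR131675 and 168 in control diet, with log2 ratios of 0.03 (−0.41 to 0.48) and 0.88 (0.48 to 1.29). Fpr1 was at 71.8, 125, 120 and 159 CPM, with log2 ratios of −0.80 (−1.31 to −0.29) and −0.40 (−0.90 to 0.10). Ccrl2, a non-signalling receptor that binds chemerin, was at 898, 835, 869 and 571 CPM, with log2 ratios of 0.10 (−0.06 to 0.27) and 0.61 (0.38 to 0.83). The interval of Cxcr4 lay above 0 with SAR131675 and that of Fpr1 below 0 in LNR, and whether the 2 experiments differ was not tested. Csf2rb, the common beta chain of the GM-CSF receptor, was at 85.3, 152, 185 and 236 CPM, with log2 ratios of −0.84 (−1.30 to −0.37) and −0.36 (−0.76 to 0.05).

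Among pattern recognition receptors, 10 of the 13 genes compared with SAR131675 had a positive log2 ratio, with a median of 0.17, where 1770 of all 3597 genes did. At least 2-fold higher were 0 of 13, where 3.61% of all genes were. In unmixed neutrophils 7 of 10 were positive with SAR131675, with a median of 0.11, where 756 of 1419 genes were. For LNR 6 of 11 were positive over all neutrophils, with a median of 0.04, where 2051 of 3710 genes were. In unmixed LNR neutrophils 9 of 11 were positive, with a median of 0.18, where 541 of 922 genes were. Clec7a, dectin-1, the receptor for fungal beta-glucan, was at 280 CPM in LNR, 242 in sham, 955 in SAR131675 and 606 in control diet, with log2 ratios of 0.21 (−0.10 to 0.53) and 0.66 (0.44 to 0.87). Tlr2, a receptor for bacterial lipoproteins, was at 154, 193, 155 and 98.3 CPM, with log2 ratios of −0.33 (−0.70 to 0.05) and 0.66 (0.12 to 1.22). Cd14, the co-receptor for lipopolysaccharide, did not differ by more than 0.16 on the log2 scale at the upper end of the interval in the diet pair, at 1766 and 1736 CPM.

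Survival genes leaned higher with SAR131675, at least 2-fold only in 1 gene family. Of 10 genes of the list compared, 10 had a positive log2 ratio with SAR131675, with a median of 0.46, where 1770 of all 3597 genes were positive. Intervals lay above 0 for 6 of the 10, where 1032 of all 3597 excluded 0. At least 2-fold higher were 3, where 3.61% of all genes were. The 3 were Bcl2a1a, Bcl2a1b and Bcl2a1d, close paralogs that encode the anti-apoptotic protein A1. Together they held 369 UMIs in LNR, 216 in sham, 573 in SAR131675 and 87 in control diet, which is 384, 422, 945 and 204 CPM. A UMI of the family was seen in 51.8%, 53.7%, 71.1% and 45.6% of neutrophils. The log2 ratio was 2.21 (1.89 to 2.56) for SAR131675 over control diet and −0.13 (−0.38 to 0.11) for LNR over sham. In unmixed neutrophils the diet ratio was 2.18, and with granule cells also left out it was 2.21. The same family in macrophages of the diet pair had a log2 ratio of 0.39 (0.23 to 0.54), and in monocytes 0.17 (−0.39 to 0.75).

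The promoters of the copies are shown because the copies differed together. The 250 upstream bases are from RefSeq on GRCm38.p6, Bcl2a1a at chr9:88956670-88956919, plus strand, Bcl2a1b at chr9:89199023-89199272, plus strand and Bcl2a1d at chr9:88731851-88732100, minus strand, printed 5′ to 3′ on the strand of the gene. Capitals mark GAGGAA on either strand, the core bound by the myeloid factor PU.1, which occurs in 23.3% of all promoters of this length and was found 3, 3 and 2 times. Bcl2a1a and Bcl2a1b were identical at 205 of 206 aligned bases (99.5%). Bcl2a1d lacks the repeat of GAGGAA that the other copies hold, so without gaps its bases fall out of register there. Its ungapped identities, 70.5% to Bcl2a1a and 67% to Bcl2a1b, are therefore too low as measures of likeness, and identity with gaps was not computed. The longest run that it shared with either copy was 84 bases.
Bcl2a1a: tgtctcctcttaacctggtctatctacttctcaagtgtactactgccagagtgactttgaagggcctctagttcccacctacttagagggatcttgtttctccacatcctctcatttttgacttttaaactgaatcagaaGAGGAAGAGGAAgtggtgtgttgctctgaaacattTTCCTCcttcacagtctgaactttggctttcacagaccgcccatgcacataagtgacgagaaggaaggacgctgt
Bcl2a1b: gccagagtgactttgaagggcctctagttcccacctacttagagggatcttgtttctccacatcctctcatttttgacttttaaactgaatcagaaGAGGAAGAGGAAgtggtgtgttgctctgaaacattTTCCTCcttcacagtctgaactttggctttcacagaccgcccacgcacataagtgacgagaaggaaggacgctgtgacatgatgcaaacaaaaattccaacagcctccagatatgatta
Bcl2a1d: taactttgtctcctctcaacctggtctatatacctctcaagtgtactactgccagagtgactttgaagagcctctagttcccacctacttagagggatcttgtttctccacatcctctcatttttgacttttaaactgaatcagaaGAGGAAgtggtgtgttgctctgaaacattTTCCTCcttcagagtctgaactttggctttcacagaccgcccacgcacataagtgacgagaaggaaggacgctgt

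Taken 1 by 1, Bcl2a1b was at 309 CPM in LNR, 320 in sham, 600 in SAR131675 and 161 in control diet, with a log2 ratio in the diet pair of 1.89 (1.52 to 2.29). Bcl2a1d was at 31.2, 52.7, 233 and 23.4 CPM, with a diet ratio of 3.31 (2.39 to 4.40), and Bcl2a1a at 43.7, 48.8, 112 and 18.7 CPM, with a diet ratio of 2.58 (1.52 to 3.85). How reads that fit more than 1 paralog were divided was not tested here, so the family sum is given first and the single values are uncertain. Mcl1, the anti-apoptotic factor on which neutrophil survival depends most, was close within pairs, at 1079, 1103, 1969 and 1844 CPM, with log2 ratios of −0.03 and 0.09. Gadd45b, a stress-response gene, and Pim1, a survival kinase, had diet ratios of 0.50 and 0.48.

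Transcription factors and their feedback genes showed few large differences. Nfkbia, the inhibitor of NF-κB that NF-κB itself induces, was at 2083 CPM in LNR, 1776 in sham, 3793 in SAR131675 and 2125 in control diet, with a log2 ratio of 0.84 (0.72 to 0.95) in the diet pair and 0.88 in its unmixed neutrophils. Klf2, a factor of leukocyte quiescence, was at 352, 373, 368 and 225 CPM, with a diet ratio of 0.71 and one of 1.12 without mixed barcodes. Cebpb, the factor of emergency granulopoiesis, was at 1772, 1596.45, 2951 and 2415 CPM. Cebpe, the factor of secondary granule formation, was at 22.9, 62.5, 6.60 and 25.7 CPM, with 4 and 11 UMIs in the diet pair, and with granule cells and mixed barcodes left out at most 2 UMIs remained in any library.

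Adhesion genes were mixed with SAR131675, with 7 of 10 negative, a median log2 ratio of −0.31, intervals above 0 for 3 genes and below 0 for 2, and 1 gene at least 2-fold different in each direction. Over all 3597 genes 1032 intervals excluded 0, 3.61% were at least 2-fold higher and 5% lower. The 3 above 0 were Icam1, Itga4, an integrin chain that binds VCAM-1 and had a diet ratio of 0.73, and Cd9, a tetraspanin with a diet ratio of 0.34. Icam1, a ligand of leukocyte integrins that NF-κB induces, was at 193 CPM in LNR, 180 in sham, 209 in SAR131675 and 84.2 in control diet, with a diet ratio of 1.31 (0.77 to 1.89). Cd177 was at 117, 222, 19.8 and 93.6 CPM, with log2 ratios of −0.93 and −2.24, and in unmixed neutrophils without granule cells 14, 4, 3 and 1 UMIs of it remained, at 1.06 and 0.87 with both intervals around 0. Itgb2, the beta chain of leukocyte integrins, was at 135, 144, 124 and 187 CPM, with a diet ratio of −0.60 (−1.07 to −0.12).

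Interferon response genes were mostly too sparse, with 5 of 16 compared in each experiment. Isg15, a ubiquitin-like interferon product, was at 132 CPM in LNR, 66.4 in sham, 269 in SAR131675 and 192 in control diet, with a UMI in 24.8%, 15.4%, 42.2% and 36.7% of neutrophils, or 15.3%, 11.9%, 24.6% and 16.7% after thinning to 1000 UMIs. Its log2 ratio was 0.99 (0.44 to 1.58) for LNR over sham, just short of 2-fold, and 1.07 (0.37 to 1.82) in unmixed neutrophils. With granule cells also left out, the Isg15 ratio fell short of 2-fold, at 0.79 from 64 and 22 UMIs. Ifitm1 was lower in both treated libraries, at 646, 894, 350 and 632 CPM, with log2 ratios of −0.47 (−0.64 to −0.29) and −0.85 (−1.12 to −0.59). The list thus held genes that moved in opposite directions.

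Glycolysis and hypoxia genes were lower with SAR131675 in all neutrophils, with 7 of 9 negative, a median log2 ratio of −0.61 and 2 at least 2-fold lower, where 5% of all genes were. In unmixed neutrophils the median was −0.23, with 0 of 8 genes at least 2-fold different, 3 positive, and 1 interval on each side of 0. Hilpda, a lipid-droplet protein induced by hypoxia, was at 87.4 CPM in LNR, 72.2 in sham, 34.6 in SAR131675 and 79.6 in control diet, with a diet ratio of −1.20 (−2.06 to −0.37) from 21 and 34 UMIs, and without mixed barcodes 10 and 29 UMIs were left, too few for a comparison. Pkm, pyruvate kinase, had a diet ratio of −0.86 in all neutrophils and −0.38 in the unmixed ones. Over 8 cell cycle genes the LNR pair gave a median log2 ratio of 1.05, with 4 of them at least 2-fold higher where 2.53% of all genes were, and over 5 genes the diet pair gave −0.87, with 2 at least 2-fold lower where 5% were, but in unmixed neutrophils 1 could be compared in each pair, at −0.43 and −0.39. Outside mixed barcodes the list was thus too sparse to compare.

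Genes of tissue-adapted neutrophils, as described in tumours and damaged organs, differed little by their median in either pair. The median log2 ratio in LNR was 0.23, with 7 of 13 genes positive, and 0.42 in unmixed neutrophils, with 10 of 11 positive but 2 intervals above 0 and 1 gene at least 2-fold higher, where 1.52% of all genes were. With SAR131675 the median was 0.18, with 9 of 14 positive, 7 intervals above 0 and 2 below, where 1032 of 3597 excluded 0, and 1 gene at least 2-fold higher, where 3.61% of all genes were. In unmixed neutrophils 7 of 13 were positive with SAR131675, with 5 intervals above 0 and 4 below. Ptgs2, cyclooxygenase 2, was at 795 CPM in LNR, 564 in sham, 1115 in SAR131675 and 814 in control diet, with log2 ratios of 0.50 (0.30 to 0.70) and 0.45 (0.26 to 0.64). Olr1, a scavenger receptor for oxidized lipoprotein, was at 49.9, 68.3, 302 and 143 CPM, with log2 ratios of −0.45 (−1.11 to 0.22) and 1.08 (0.65 to 1.52). Cd274, which encodes PD-L1, was at 70.8, 60.5, 256 and 157 CPM, with a diet ratio of 0.71 in all neutrophils and 0.34 (−0.14 to 0.84) in unmixed ones. Siglecf, the marker of one such state, had at most 4.95 CPM.

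Ligands for bone and lymphatic cells were sparse apart from those named above. Tnfsf11, RANKL, the osteoclast differentiation factor, had 1, 0, 0 and 0 UMIs in LNR, sham, SAR131675 and control diet. Vegfc, the main ligand of VEGFR3, had 7, 3, 2 and 9 UMIs in all neutrophils and 0 in the unmixed ones of every library. Vegfa was at 40.6, 52.7, 122 and 88.9 CPM, and both intervals included 0. At this depth the neutrophils thus gave no measurable level of either Tnfsf11 or Vegfc outside mixed barcodes.

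The largest differences by size alone rested in part on single cells. In LNR against sham, Csta2, a stefin A gene, was at 88.5 against 17.6 CPM (log2 ratio 2.33), and Stfa3, another stefin, at 123 against 56.6 CPM (1.12). Stfa3 had a log2 ratio of −3.33 (−8.85 to −0.29) once mixed barcodes and granule cells were left out, with 1 and 6 UMIs remaining. The 10 stefin A genes together had a log2 ratio of 0.22, 0.56 in unmixed neutrophils and 0.14 (−0.05 to 0.33) with granule cells also left out. Gpr35, a receptor of neutrophil recruitment, was at 51.0 against 21.5 CPM, with a log2 ratio of 1.25. In unmixed neutrophils its ratio was 2.57, but from under the minimum of 50 UMIs for a comparison. Prg4, lubricin of joint-lining cells, was at 19011 in LNR and 8521 in sham but at 118 and 93.2 CPM in unmixed neutrophils. Alas1, the first enzyme of haem synthesis, was at 33.3 against 91.7 CPM, with a log2 ratio of −1.46, and −1.31 in unmixed neutrophils.

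In the diet pair, Lrg1, a secreted glycoprotein stored in neutrophil granules, was at 107 CPM in SAR131675 and 328 in control diet, with a log2 ratio of −1.61 (−2.06 to −1.18), −1.55 in unmixed neutrophils and −1.61 with granule cells also left out. The ratio was thus as large without the granule cells. Dusp2, a phosphatase of activated leukocytes, was at 129 against 42.1 CPM, with a ratio of 1.61 that was 1.36 in unmixed neutrophils. Ltb, lymphotoxin beta, was at 89.1 against 35.1 CPM, with a ratio of 1.34 and 1.04 in unmixed neutrophils. Olfm4, a granule glycoprotein of a neutrophil subset, was at 28.0 against 112 CPM, but 79.2% of its control diet UMIs came from 1 cell. Slc16a10 had a ratio of 1.87, with 57.9% of the SAR131675 UMIs in 1 cell and −0.81 in unmixed neutrophils.

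**Figure D5:**
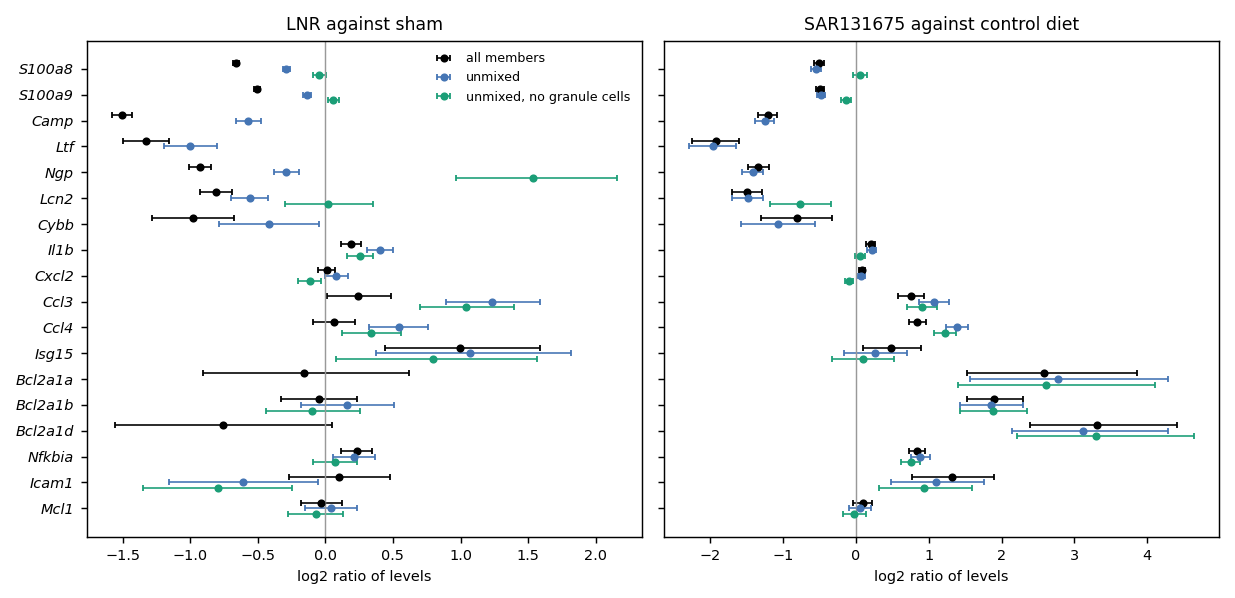
Log2 ratios of CPM with 95% intervals for 18 genes in both experiments, over all neutrophils, unmixed neutrophils and unmixed neutrophils without granule cells. For SAR131675 over control diet the Bcl2a1 copies lie at 1.89 to 3.31 in all neutrophils, while Camp and Ltf lie below 0 in both experiments over all neutrophils. Points are left out where a gene had under 50 UMIs, and the point of Ngp without granule cells is no comparison, since Ngp helped define those cells.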

How the data were processed

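The tissue was dissociated by the study and captured on 10x Genomics 3′ chips. The authors deposited 1 filtered matrix of UMI counts per library, made with Cell Ranger against GRCm39. The submitters' processing notes give version 6.1.2 for all libraries, and the file headers give 6.1.2 for LNR and sham and 8.0.1 for the diet libraries. Every gene in the deposited count matrices was used, and no doublet was removed from the main values. Scrublet (in scanpy 1.11.5) was run as an alternative.

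Counts of the chosen cells were summed per library and divided by their total to give CPM. Levels have exact Poisson intervals, shares Clopper-Pearson intervals and ratios exact conditional intervals, all at 95%. With 1 library per condition no test was run, and an exact sign-flip permutation over 4 libraries cannot go below 0.125. The neutrophil rule, the gene lists and the comparisons were chosen with earlier results of these data known, and the mixed barcodes and granule cells were defined after seeing the data. Any gene of the lists could be named. By size, the text draws on the 10 largest ratios in each direction and pair, among genes with 50 or more UMIs and a level at or above that of other kept cells in both libraries, on genes 2-fold different in both pairs, and on the 20 genes furthest above other cells. Other scalings, count minimums and cell limits were tried. The calculation was tested on simulated counts. Promoters were taken from RefSeq on GRCm38.p6, another build than that of the counts, and 16 of 17 genes matched. Python 3.11.15, numpy 2.4.6, scipy 1.17.1, pandas 2.3.3 and matplotlib 3.10.9 were used. Results for some genes are not reported here.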

Additional observations from a re-analysis of the deposited data

How the results depend on the processing

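No paired analysis was possible because each group has 1 library and the labels give no shared replicate numbers. For the same reason no library could be left out. Of 68 alternatives to the shares and gene counts, 37 stayed close to the reported value and 31 moved. Neither ratio of shares changed sign under these, but the balance of genes did. The log2 ratio of shares in LNR over sham was 0.33 with 2 markers required in place of 3 and 0.37 among cells with a Ptprc UMI. The number of genes at least 2-fold higher or lower depended on which cells and genes entered. For LNR over sham, genes higher numbered 14 in unmixed neutrophils, 9 without granule cells as well, 391 with a minimum of 20 UMIs, 29 with 100 UMIs, 9 among genes at or above the level of other kept cells, 8 when that limit was put on unmixed neutrophils, and 252 by the mean over cells. Genes lower numbered 4, 6, 192, 16, 16, 2 and 88 in the same order, and 27 with 4 markers required. For SAR131675 over control diet, genes higher numbered 49 in unmixed neutrophils, 41 without granule cells, 415 with 20 UMIs, 55 with 100 UMIs, 26 among genes at or above the level of other cells, 35 with that limit on unmixed neutrophils, and 206 without Scrublet doublets. Genes lower numbered 42, 46, 589, 67, 21, 30 and 413 in the same order. Leaving out Scrublet doublets removed 21 neutrophils of SAR131675 and 1 of control diet. Genes higher thus no longer outnumbered genes lower in LNR among genes at the level of other cells (9 against 16), and genes lower no longer outnumbered genes higher with SAR131675 in unmixed neutrophils (49 against 42). The cause of these shifts was not tested, except that a minimum or a limit on genes changes how many are compared. Of 353 alternative values for 16 genes, 251 stayed close and 102 moved. Without granule cells, Ngp (LNR over sham) went from −0.93 to 1.54, which the definition of those cells can set, and others changed sign there too: in LNR Lcn2 from −0.81 to 0.02, S100a9 from −0.51 to 0.06 and Cxcl2 from 0.01 to −0.12, and in the diet pair S100a8 from −0.51 to 0.05 and Cxcl2 from 0.08 to −0.09. Chil3, Camp, Cd177 and Bcl2a1a in LNR, and Cd177 and Ngp in the diet pair, did so from under 50 UMIs. In LNR Bcl2a1b, at −0.05, kept its sign in 7 of 12 alternatives, and Ccl4, at 0.06, in 11 of 12. Stfa3 and Slc16a10, not among the 16, changed sign as the report gives. The 79 to 218 neutrophils per library limit rare cells most, since 1 and 3 granule cells set the granule values of the diet pair.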
